A study of Mus musculus with 60 samples.

Results

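The 10 genes described here encode the urea cycle and the glutamine enzymes that flank it: Cps1, Otc, Ass1, Asl, Arg1, Nags, Slc25a15, Glul, Gls2 and Arg2. They were taken by name and not by a cutoff on their values, although earlier results of these data were known when they were chosen. All 10 were found among the 19355 gene rows of a table of hepatocytes and cultures derived from them. They were also found among the 17473 gene rows of a table of livers after partial hepatectomy. Each table gives FPKM, sequenced fragments scaled by transcript length and by library size, for every sample. Depth, recovered from the smallest steps between FPKM values, was 49.3 to 88.9 Mreads (megareads) on genes in the cell samples and 52.1 to 79.3 Mreads in the livers, and whether a step stood for a read or a read pair was not established.

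The liver disposes of ammonia by making urea in hepatocytes near the portal vein and by building glutamine in a thin layer of hepatocytes around the central vein. In the mitochondrion, NAGS makes the activator that CPS1 requires, CPS1 joins ammonia and bicarbonate into carbamoyl phosphate, and OTC passes it to ornithine, which SLC25A15 carries in while citrulline leaves. In the cytosol, ASS1 and ASL turn citrulline into arginine, and ARG1 splits arginine into urea and ornithine. ARG2 is the mitochondrial arginase found mostly outside the liver, GLS2 is the liver-type glutaminase that releases ammonia from glutamine, and GLUL is glutamine synthetase, the enzyme of the perivenous layer.

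Primary hepatocytes came from mice 8 to 10 weeks old, C57BL/6J in the study's methods and C57BL/6 wild type in the labels. They were cultured in a serum-free expansion medium with insulin, transferrin, selenium, EGF, HGF, dexamethasone and IL6 at 30 ng/ml, which gave the progenitor-like cells called IL6-iHPCs. Unpassaged IL6-iHPCs were taken on day 3 and day 14 (D3 and D14, both passage P0). Passaged IL6-iHPCs came from 4 lines, named clone-1 (P20), mouse-1 (P35), mouse-1 (P10) and mouse-2 (P10), where both mouse-1 entries are passages of the same line. Every line is labelled wild type, but the clone-1 that the study describes was grown from 1 hepatocyte of a cross of Albumin-Cre with R26RtdTomato mice, and whether the sequenced clone-1 is that clone is not stated. By their labels, IL6-iMHs are the same lines after maturation, for which the study's methods give 7 days in a medium with dexamethasone and oncostatin M. With the hepatocytes this made 11 groups of 3 samples, and the study describes the 3 as technical repeats, so the p-values below cover technical error and not the difference between animals. The livers were normal liver and remnants taken 6 h and 24 h and 3, 7 and 14 days after partial hepatectomy (PHX-6h to PHX-D14), 6 groups of 3. For the hepatectomy experiment the study's methods give C57BL/6J mice 8 to 10 weeks old. Whether each liver sample was a separate mouse is not stated.

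Several libraries stood apart from their labels or their group. The clone-1 IL6-iHPCs carried reads of the Y-linked genes Ddx3y (6.74 to 7.54 FPKM) and Eif2s3y (17.5 to 21.5 FPKM), whereas the clone-1 IL6-iMHs were listed at 0 for both. The libraries labelled clone-1 before and after maturation may therefore not be one clone, and results over the 4 lines are also given without them. Eif2s3y was at 3.52 to 4.71 FPKM in the hepatocytes, 27.2 to 38.7 FPKM at D3 and D14 and at most 0.0157 FPKM in the mouse-1 and mouse-2 lines, so in comparisons with hepatocytes the sex of the donors and the culture cannot be told apart. PHX-D3 replicate 2 had a summed level of pericentral markers of 463 FPKM beside 3323 and 2467 FPKM in the other replicates, so liver results are also given without it. The summed level of 6 hepatocyte markers was 82748 to 87350 FPKM in the hepatocytes, 5106 to 25851 FPKM in the passaged IL6-iHPCs and 70381 to 91230 FPKM in the IL6-iMHs. Cholangiocyte and progenitor markers summed to 3.84 to 3.94 FPKM in the hepatocytes, 2699 to 10977 FPKM in the passaged IL6-iHPCs and 200 to 1408 FPKM in the IL6-iMHs. In bulk samples such as these, fewer cells of a type and less RNA per cell cannot be told apart.

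The members are scattered over the genome. In GRCm38.p6, the assembly also called mm10, Cps1 lies at chr1:67122426-67231267, Otc at chrX:10252230-10321024, Ass1 at chr2:31470270-31520670, Asl at chr5:130011258-130024381, Arg1 at chr10:24915207-24927470, Nags at chr11:102145513-102149528, Slc25a15 at chr8:22375550-22398621, Glul at chr1:153899929-153909723, Gls2 at chr10:128194635-128210004 and Arg2 at chr12:79130788-79156301. Exons of Nags, Glul, Gls2 and Arg2 overlap exons of other genes (Gm11586; Mir8114 and Teddm2; Spryd4; Gm48780 and Vti1b), and since no strand setting of the counting is given, reads from those stretches cannot be told apart.

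Upstream sequence is shown for 3 members whose levels parted in the cultures: Glul, which rose, and Ass1 and Otc, which fell and then recovered or did not. RefSeq promoter entries (GRCm38.p6) were given for 5 of the 10 members. All 3 genes are on the plus strand, each entry is shown only up to the base before the first base of the gene in RefSeq or GENCODE, whichever lies further upstream (GENCODE for Ass1), and capitals mark the CCAAT box and the GC box (GGGCGG).
Glul, chr1:153899679-153899928: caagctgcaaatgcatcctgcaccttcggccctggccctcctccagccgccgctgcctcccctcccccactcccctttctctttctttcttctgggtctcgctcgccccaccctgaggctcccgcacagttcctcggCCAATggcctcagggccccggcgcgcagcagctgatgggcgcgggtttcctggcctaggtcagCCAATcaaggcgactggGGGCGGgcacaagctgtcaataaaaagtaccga
Ass1, chr2:31470020-31470206: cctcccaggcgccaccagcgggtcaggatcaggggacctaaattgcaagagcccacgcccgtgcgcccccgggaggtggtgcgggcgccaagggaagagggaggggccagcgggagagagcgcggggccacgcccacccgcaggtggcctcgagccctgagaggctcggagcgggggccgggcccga
Otc, chrX:10252055-10252229: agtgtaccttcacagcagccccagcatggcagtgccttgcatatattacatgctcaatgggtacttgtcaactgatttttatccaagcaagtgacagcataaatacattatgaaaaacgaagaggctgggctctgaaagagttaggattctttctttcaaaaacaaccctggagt
The Glul window held a CCAAT box at 113 to 109 bases before the start, another at 50 to 46 and a GC box at 33 to 28, and its GC content was 64.8%. The GC content of the Ass1 window was 75.4% and that of the Otc window 41.7%, against a median of 52.4% over 32851 promoters, and neither held any of the 6 motifs searched on both strands. Those motifs, none overlapping another here, were the TATA box TATAAA (found in 12.4% of all promoters), the CCAAT box (33.8%), the GC box (32.7%), the C/EBP site TTGCNNAA (9.6%), the HNF4 half-site CAAAGT (12.6%) and the palindromic glucocorticoid receptor element (0.4%). The Ass1 and Otc windows were cut to 187 and 175 bases, whereas the values for all promoters are over 250 bases each. The bases cut lay nearest the start of each promoter entry, so a motif there would be missed. A match is a description of the letters and not a measured site.

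In primary hepatocytes the levels followed the order Ass1, Arg1, Cps1, Asl, Gls2, Otc, Slc25a15, Nags, Glul and Arg2. Ass1 was at 2248, 2267 and 1909 FPKM, Arg1 at 1075, 1061 and 1186 FPKM, and Cps1 at 631, 804 and 669 FPKM. Each member's replicates lay wholly above those of the next in the order, so no neighbours overlapped. Asl averaged 479 ± 13.5 FPKM, Gls2 297 ± 4.34 FPKM and Otc 150 ± 0.349 FPKM (SD, n = 3 each). The ornithine carrier Slc25a15 averaged 87.3 ± 2.63 FPKM and Nags 60.7 ± 4.17 FPKM. Glul was low, at 13.4, 14.5 and 13.1 FPKM, and Arg2 was near the detection limit, with 3, 6 and 0 reads. FPKM is per transcript length, so these levels can be set beside each other. In normal liver, normalized apart and not tested against these cells, Glul was at 266 to 278 FPKM. The Glul rises in culture given below are therefore against isolated hepatocytes and not against liver.

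Relative to isolated hepatocytes, early culture lowered the cycle and raised glutamine synthetase. Differences are on the log2(FPKM + 1) scale from a limma fit over all 11 groups, and a gene was called at an adjusted p under 0.05 and at least a 2-fold difference. At D3, 8 of the 10 members were called lower than in hepatocytes and 1 higher. Among the 12328 genes tested, 66% were called, 53.9% higher and 12.1% lower, so the members' direction was opposite to that of most called genes. The same counts held at D14, where 62.9% of all genes were called (50% higher, 12.9% lower). The median of all genes was itself shifted by 1.14 at D3 and 1.00 at D14 on this scale, and relative to it each fall below would be larger and the Glul rise 0.68 at D3 and 2.06 at D14.

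Arg1, the last enzyme of the cycle, was at 0.69, 0.699 and 0.611 FPKM at D3 and at 0.849, 0.888 and 1.68 FPKM at D14. Both sets lay far below the hepatocytes, at 0.0602% and 0.103% of their mean FPKM. The fitted differences were -9.38 ± 0.13 (SE; adjusted p = 8.91e-32) and -9.04 ± 0.13 (adjusted p = 2.00e-31). Otc, the enzyme that makes citrulline, was at 0.104, 0.131 and 0.211 FPKM at D3 and 0.0556, 0.0348 and 0.0669 FPKM at D14. Its fitted difference was -7.04 ± 0.07 at D3 (adjusted p = 1.97e-34), and D14 did not pass the test against D3 (-0.13, adjusted p = 0.122).

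Cps1 took another course. Its levels were 3.22, 2.72 and 2.95 FPKM at D3 and 39.6, 50.1 and 39.1 FPKM at D14. The D14 samples were all above the D3 samples and all below the hepatocytes, with a rise of 3.46 ± 0.15 between the days (adjusted p = 5.27e-18). In contrast, Ass1 moved down further, from 60.6, 64.2 and 68.5 FPKM at D3 to 18.8, 19.3 and 19.7 FPKM at D14 (-1.69 ± 0.16, adjusted p = 1.24e-10). Gls2 followed the same course, from 11.3, 10.1 and 11.9 FPKM to 1.37, 1.51 and 1.6 FPKM (-2.28 ± 0.10, adjusted p = 1.72e-18). Glul was at 50.3, 54 and 47.7 FPKM at D3 and at 117, 129 and 120 FPKM at D14, each set wholly above the one before (1.25 ± 0.06 between the days, adjusted p = 1.17e-17). In all, 2 members were called higher and 2 lower between D3 and D14, a comparison in which 5.12% of all genes were called higher and 5.05% lower (10.2% in all).

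Asl, Slc25a15 and Nags kept larger shares of their hepatocyte level than Arg1, Otc and Ass1 on both days, and Cps1, at 6.13% on D14, then lay between Nags and Asl. Asl, argininosuccinate lyase, stayed at 5.59% of the hepatocyte mean at D3 and 4.77% at D14. Slc25a15 stood at 8.82% and 4.13%, and Nags at 17.6% and 14.9%. None of the 3 was called between D3 and D14. Arg2 reached 0.718 to 1.02 FPKM at D3 and 0.611 to 1.2 FPKM at D14, under the 2-fold threshold on the log2(FPKM + 1) scale, and its sign turned to -0.60 and -0.49 when the samples were centred on their medians. The Glul difference kept its direction under centring at D3 (0.36) and D14 (1.75), but at D3 it then missed 2-fold, which left 8 members called, all lower.

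**Figure D1:**
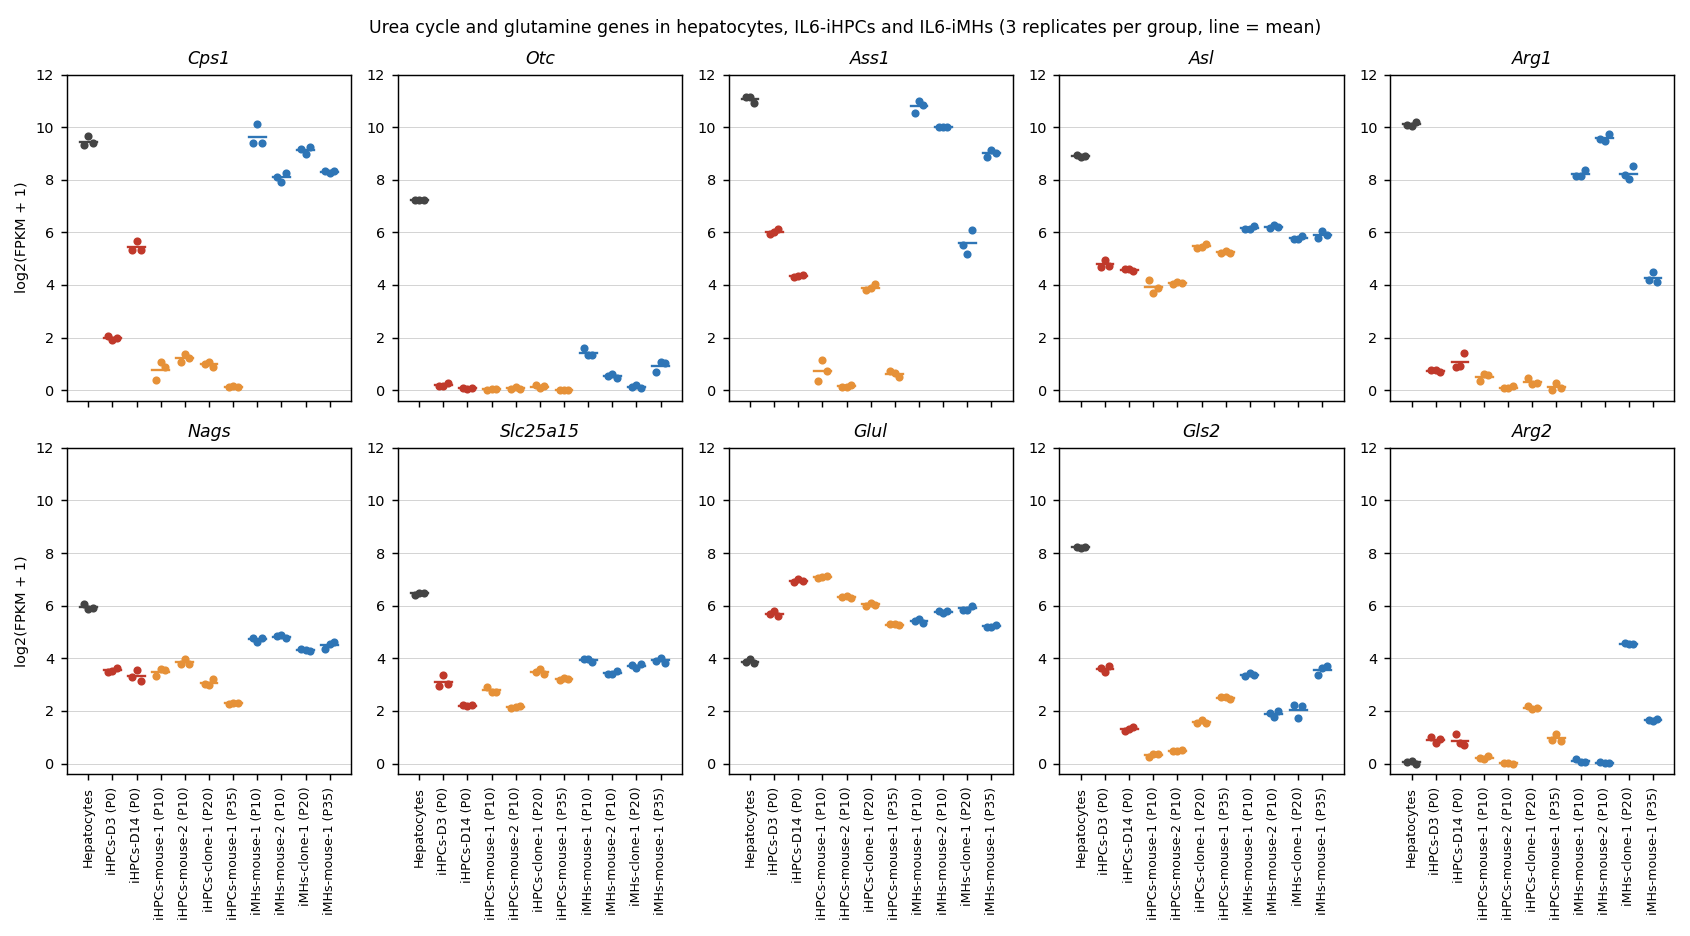
Levels of the 10 members in the 11 groups of the cell table, as log2(FPKM + 1) on the vertical axis, with a point per sample and a line at the mean of 3. Cps1, Ass1 and Arg1 are high in hepatocytes (dark), near 0 in most passaged IL6-iHPCs (orange) and high again in most IL6-iMHs (blue), Otc stays at or under 2.04 FPKM in every cultured sample, and Glul is lowest in hepatocytes.

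In passaged IL6-iHPCs most members again lay below the hepatocytes. Over the 4 lines together, 8 members were called lower than in hepatocytes and 1 higher, against 11.3% of all genes lower and 48.1% higher (59.4% in all). The members' median difference was -5.62 and that of all genes 0.93. Cps1 ranged from 0.0774 to 1.57 FPKM over 12 samples (median 0.923), Arg1 from 0.0183 to 0.515 FPKM (median 0.196) and Otc from 0 to 0.148 FPKM (median 0.0366). None of these ranges came near the hepatocytes, and the average of the 4 line means was 0.113%, 0.0192% and 0.0325% of the hepatocyte mean. The fitted differences were -8.67 ± 0.12 for Cps1, -9.85 ± 0.10 for Arg1 and -7.17 ± 0.06 for Otc (limma adjusted p = 9.31e-32, 3.29e-35 and 1.60e-37).

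Ass1 differed widely between the lines, with line means from 0.104 to 14 FPKM. It was at 13, 13.7 and 15.3 FPKM in clone-1 and at 0.0851 to 1.21 FPKM in the other 9 samples, so clone-1 lay apart from the rest. The difference to hepatocytes was -9.71 ± 0.12 over the 4 lines (adjusted p = 1.17e-32), and it was called with and without clone-1. Of the cycle genes, 3 kept the largest shares: Asl was at 12 to 46 FPKM (5.75% of hepatocytes), Slc25a15 at 3.37 to 11 FPKM (7.95%) and Nags at 3.85 to 14.6 FPKM (14.4%). Gls2 was at 0.199 to 4.78 FPKM (0.612%).

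Glul was higher than in hepatocytes in every passaged line, yet unevenly so. It was at 131, 134 and 139 FPKM in mouse-1 (P10), 80.4, 82.6 and 76.6 FPKM in mouse-2 (P10), 63.2, 67.6 and 64.7 FPKM in clone-1 and 38.1, 38.2 and 37.3 FPKM in mouse-1 (P35). All 12 samples exceeded the 3 hepatocyte samples and the 4 lines did not overlap each other. The difference over the lines was 2.31 ± 0.04 (adjusted p = 4.03e-28), or 1.38 relative to the median of all genes. Median centring turned the mouse-1 (P35) difference to -0.03 (adjusted p = 0.651), so in that line the direction rests on the scaling. Pericentral markers, the list to which Glul would belong by position in the liver, summed to 2.42 to 24.5 FPKM in the cultures and 3073 to 3352 FPKM in the hepatocytes.

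Line by line against hepatocytes, mouse-1 (P10), mouse-2 (P10) and mouse-1 (P35) each had 8 members lower and 1 higher. Of all genes, 52.6%, 55.9% and 66% were called in these lines, 12.6%, 13.1% and 11.7% lower and 40%, 42.8% and 54.3% higher. Clone-1 had 8 lower and 2 higher, with 61.9% of all genes called, 10.4% lower and 51.5% higher. The second rise in clone-1 was Arg2, at 3.49, 3.22 and 3.3 FPKM, a call lost with median centring (0.71). Arg2 was listed at 0 to 1.17 FPKM in the other lines, below every clone-1 sample. These comparisons all use the same 3 hepatocyte samples.

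Between passages of the mouse-1 line, P35 against P10, 2 members were called higher, 2 lower and 6 not, where 24.8% of all genes were called higher and 8.94% lower (33.7% in all). Gls2 rose from 0.199, 0.28 and 0.282 FPKM to 4.78, 4.73 and 4.43 FPKM (2.17 ± 0.10, adjusted p = 1.35e-18) and Asl from 17.2, 12 and 13.6 FPKM to 35.8, 37.9 and 36.5 FPKM (1.32 ± 0.09, adjusted p = 1.65e-14). The Asl call was lost with quantile normalization and with median centring (0.92 in both). Neither gene's passages overlapped. Glul fell by 1.80 (SE 0.06, adjusted p = 4.00e-22) and Nags by 1.21 (SE 0.09, adjusted p = 5.08e-13), Nags from 9.09, 11.1 and 10.6 FPKM to 3.85, 3.9 and 3.86 FPKM. A single line cannot separate passage from other changes of that culture.

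Maturation raised 3 enzymes of the cycle steeply and left Otc low. Over the 4 lines, 6 members were called higher in IL6-iMHs than in IL6-iHPCs of the same line label, and none lower. The other 4 were not called, while 6.68% of all genes were called higher and 21.4% lower (28.1% in all). For clone-1 the shared label may not mean one clone, as said above. Cps1 rose by 8.01 ± 0.08, Ass1 by 7.49 ± 0.08 and Arg1 by 7.31 ± 0.06 on the log2(FPKM + 1) scale (adjusted p = 3.22e-35, 3.06e-34 and 4.20e-36). Gls2, Nags and Asl rose by 1.50 ± 0.05, 1.43 ± 0.05 and 1.34 ± 0.04 (adjusted p = 1.48e-22, 1.83e-22 and 1.76e-22). Slc25a15 (0.84), Arg2 (0.76), Otc (0.69) and Glul (-0.61) passed the adjusted p but not 2-fold, and without clone-1 Slc25a15 also passed 2-fold (1.05). With median centring Slc25a15 (1.39), Arg2 (1.301) and Otc (1.24) were called higher, as was Slc25a15 with quantile normalization (1.34) and Otc with a pseudocount of 0.1 (2.21). The median of all genes moved by -0.40 in this comparison.

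The level reached depended on the gene. In IL6-iMHs, Cps1 was at 680, 1110 and 666 FPKM in mouse-1 (P10), 274, 240 and 308 FPKM in mouse-2 (P10), 572, 506 and 604 FPKM in clone-1 and 320, 305 and 321 FPKM in mouse-1 (P35). The first of these overlapped the hepatocytes and the other 3 lines lay below them. The difference to hepatocytes over the 4 lines was -0.66 ± 0.12 (adjusted p = 1.07e-05), under 2-fold, and it became -1.35 and was called with median centring. Cps1 averaged 70.2% of the hepatocyte FPKM, Ass1 39.3%, Nags 38.6%, Arg1 31.5%, Slc25a15 14.4%, Asl 13.5%, Gls2 2.21% and Otc 0.528%.

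Otc was the exception among the enzymes of the mitochondrial steps. It was at 2.04, 1.55 and 1.53 FPKM in mouse-1 (P10) IL6-iMHs, 0.465, 0.545 and 0.364 FPKM in mouse-2 (P10), 0.0789, 0.16 and 0.0565 FPKM in clone-1 and 0.621, 1.08 and 1.04 FPKM in mouse-1 (P35). No sample came near the 150 to 151 FPKM of the hepatocytes. The difference to hepatocytes was -6.48 ± 0.06 (adjusted p = 2.62e-36), called with and without clone-1. Within the same IL6-iMH libraries the enzymes before and after it were at 240 to 1110 FPKM (Cps1) and 35.3 to 2019 FPKM (Ass1).

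Against hepatocytes, the IL6-iMHs as a class had 7 members lower, 2 higher and 1 not called, with 7.79% of all genes lower and 24.8% higher (32.6% in all). The members' median difference was -2.38 and that of all genes 0.46. By line, lower and higher counts were 6 and 1 in mouse-1 (P10), 7 and 1 in mouse-2 (P10), 7 and 2 in clone-1 and 8 and 2 in mouse-1 (P35), with 32.6%, 25.2%, 45.3% and 35.2% of all genes called. The lower and higher shares of all genes were 7.25% and 25.4%, 7.63% and 17.6%, 10.4% and 35%, and 8.02% and 27.1% in the same order. Glul stayed above the hepatocytes in all 12 samples, at 35.7 to 62.6 FPKM (1.70 ± 0.04, adjusted p = 1.93e-24). Its call was lost with median centring in mouse-1 (P10) (0.83) and mouse-1 (P35) (0.62), and in the latter also with quantile normalization (0.78). Arg2 was the second rise of the class, and it came from clone-1, at 22.9, 22.3 and 22.1 FPKM, and mouse-1 (P35), at 2.16, 2.1 and 2.2 FPKM. Both P10 lines were at or under 0.135 FPKM, and without clone-1 the Arg2 difference was 0.56 and not called. With median centring neither the class (0.85) nor mouse-1 (P35) (0.89) was called for Arg2.

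**Figure D2:**
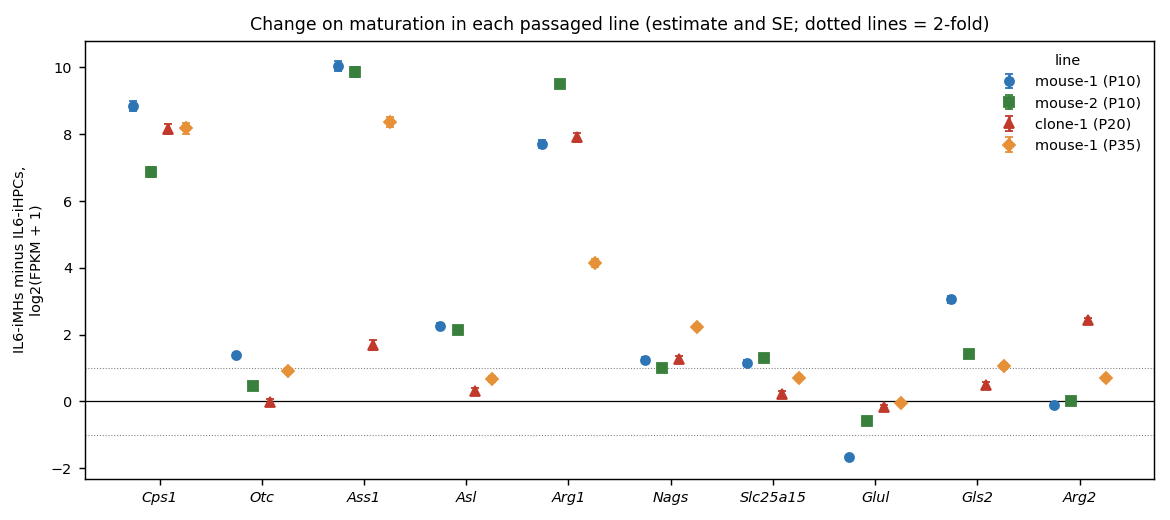
Change from IL6-iHPCs to IL6-iMHs in each of the 4 passaged lines, as the fitted difference on the log2(FPKM + 1) scale with its SE, and dotted lines at 2-fold. Ass1 spans 1.69 (clone-1) to 10.05 (mouse-1 P10), Arg1 4.14 (mouse-1 P35) to 9.50 (mouse-2 P10), and Cps1 only 6.88 to 8.85.

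The lines did not mature alike. Higher, lower and uncalled members numbered 8, 1 and 1 in mouse-1 (P10), 6, 0 and 4 in mouse-2 (P10), 5, 0 and 5 in clone-1 and 5, 0 and 5 in mouse-1 (P35), where 25%, 39.9%, 23.6% and 45.3% of all genes were called. The higher and lower shares of all genes were 9.59% and 15.4%, 11.2% and 28.6%, 5.86% and 17.7%, and 10.2% and 35.1%, so that calls were mostly lower while those of the members were mostly higher. Cps1, Ass1 and Arg1 were called higher in all 4 lines. Nags was called in all but mouse-2 (P10), where it was just under 2-fold (0.99) and was called with a pseudocount of 0.1 (1.04), quantile normalization (1.18), median centring (1.68) and without IL6-iMH replicate 3 (1.02) or IL6-iHPC replicate 2 (1.05). In clone-1, Ass1 reached 44.4, 35.3 and 67.4 FPKM, and in the other lines 1490, 2019 and 1837 FPKM (mouse-1 P10), 1020, 1014 and 1031 FPKM (mouse-2 P10) and 469, 556 and 512 FPKM (mouse-1 P35). The libraries labelled clone-1 were all below the others here, whereas among the IL6-iHPCs those labelled clone-1 were highest. Arg1 was the low gene of mouse-1 (P35), at 17.3, 21.5 and 16.5 FPKM, where mouse-1 (P10) had 281, 278 and 331 FPKM, clone-1 287, 258 and 363 FPKM and mouse-2 (P10) 757, 711 and 859 FPKM. The lowest line thus differed between Ass1 and Arg1.

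An F test of the difference in maturation between the 4 lines passed for all 10 members, but also for 96.3% of all genes tested. F was 636 for Ass1, 326 for Arg1 and 29.6 for Cps1, the lowest (adjusted p = 8.06e-24 to 1.26e-08 over the members). Glul fell by 1.66 (SE 0.06) on maturation in mouse-1 (P10), where it had been highest, and differed by -0.06 (SE 0.06) in mouse-1 (P35), where it had been lowest. The 4 lines lay closer in Glul after maturation, with line means 36.2 to 58.5 FPKM against 37.9 to 135 FPKM before it.

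Ratios between enzymes that catalyse like reactions were shifted in the cultures. Ratios were taken within each sample as log2 of (FPKM + 1) over (FPKM + 1), so that sample scaling cancels except through the pseudocount. CAD carries the carbamoyl phosphate synthetase of pyrimidine synthesis, and its ratio to Cps1 was -7.69, -7.90 and -8.00 in hepatocytes, 2.26 on average at D3, -1.33 at D14, 2.05 to 5.76 in the passaged IL6-iHPC lines and -7.76 to -5.67 in the IL6-iMH lines. Thus Cad exceeded Cps1 in every passaged IL6-iHPC line and fell below it in every IL6-iMH line. The ratio of Arg2 to Arg1 went from -10.07 in hepatocytes to between -0.28 and 1.79 in the IL6-iHPC lines, where both genes were low, with Arg2 still the lower in mouse-1 (P10) (-0.28) and mouse-2 (P10) (-0.08), and to -9.57, -8.11, -2.62 and -3.68 in the IL6-iMHs of mouse-2 (P10), mouse-1 (P10), mouse-1 (P35) and clone-1.

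The ratio of Glul to Gls2, that is of glutamine synthesis to glutamine breakdown at the RNA level, was -4.37, -4.24 and -4.41 in hepatocytes. It was 2.09 on average at D3, 5.62 at D14, 5.85, 6.76, 2.78 and 4.48 in the IL6-iHPCs of mouse-2 (P10), mouse-1 (P10), mouse-1 (P35) and clone-1, and 3.86, 2.04, 1.66 and 3.84 in their IL6-iMHs. No cultured group overlapped the hepatocytes, and maturation did not return the ratio to their side of 0. With 3 samples against 3, the exact two-sided permutation test cannot go below p = 0.10. Over all 45 ratio comparisons, 38 were at that limit, with Benjamini-Hochberg adjusted p = 0.12.

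**Figure D3:**
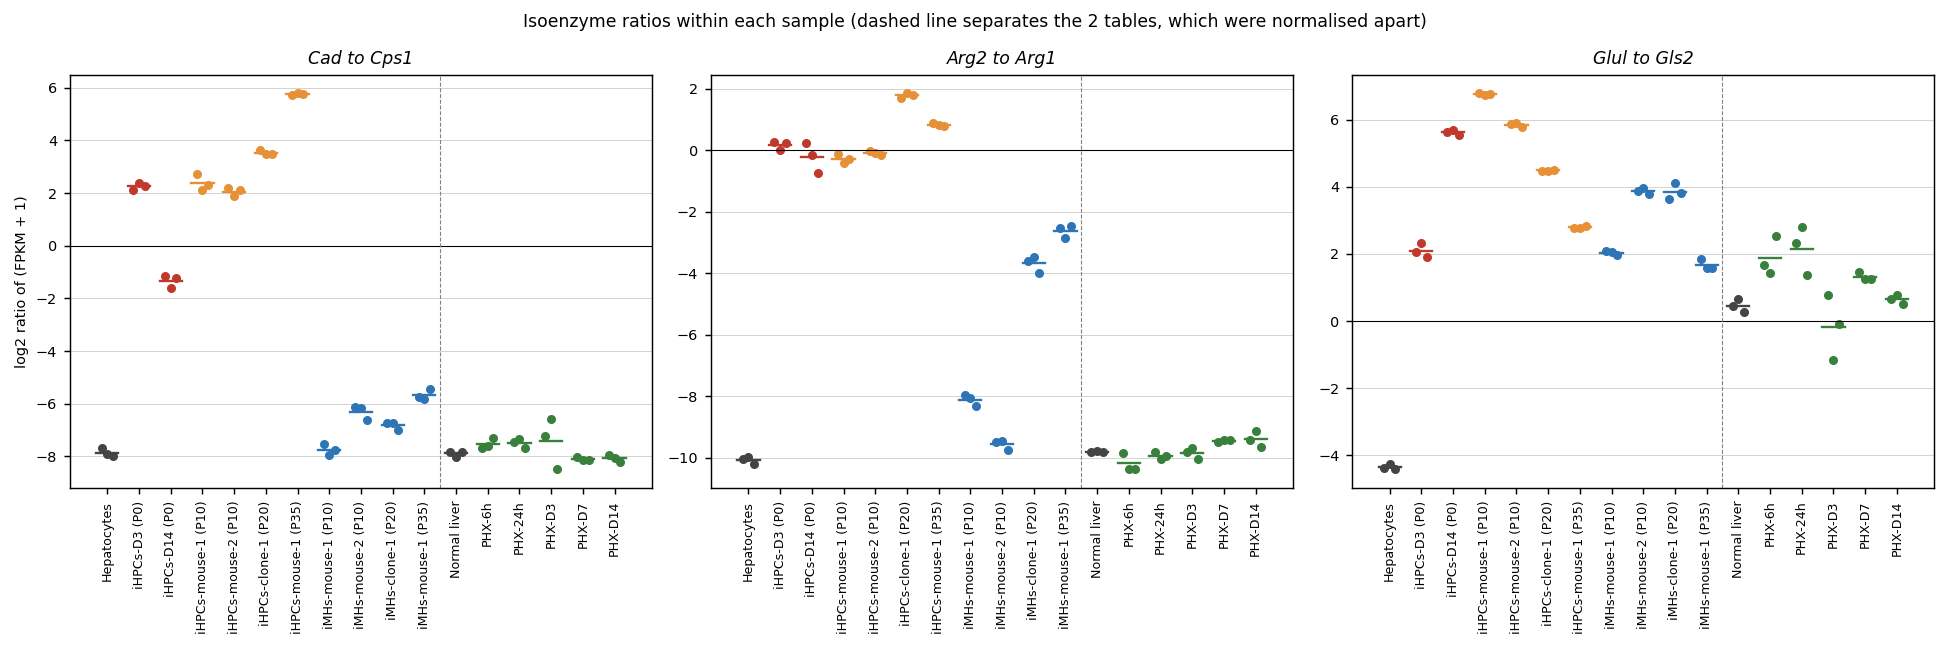
Log2 ratios of (FPKM + 1) within each sample for Cad to Cps1, Arg2 to Arg1 and Glul to Gls2, with a point per sample, a line at the group mean and a dashed line between the cell and liver tables. Hepatocytes and livers lie below -4 in the first 2 panels, and for Glul to Gls2 the hepatocytes lie near -4.34 while normal liver lies near 0.46.

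Among 39 other genes of nitrogen metabolism, 35 were tested in the cells. In passaged IL6-iHPCs 11 were called higher and 19 lower than in hepatocytes, beside 48.1% and 11.3% of all genes, with a median of -1.05 where all genes had 0.93. The largest rises were Asns, asparagine synthetase (5.54 ± 0.05), Aldh18a1, which makes the precursor of proline and ornithine (5.02 ± 0.06), and Slc7a1, a transporter of arginine and lysine (3.87 ± 0.06). The largest falls were the catabolic enzymes Sds, serine dehydratase (-7.81 ± 0.10), and Hal, histidine ammonia-lyase (-6.58 ± 0.08), and the amino acid transporter Slc38a4 (-5.91 ± 0.06). In IL6-iMHs 8 were higher and 15 lower than in hepatocytes, where 24.8% and 7.79% of all genes were. Maturation raised 12 and lowered 3, beside 6.68% and 21.4% of all genes, among the raised Slc38a4 (3.99 ± 0.04), the arginine transporter Slc7a2 (3.24 ± 0.06) and the mitochondrial carbonic anhydrase Car5a (2.38 ± 0.04), which feeds bicarbonate to CPS1.

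Of 7 regulators of the pathway, 3 were called lower and 1 higher in passaged IL6-iHPCs, where 11.3% of all genes were lower and 48.1% higher. Cebpa, a C/EBP factor known to drive urea cycle genes, was at 304, 249 and 268 FPKM in hepatocytes, and it differed from them by -3.58 in the passaged IL6-iHPCs and by -2.05 after maturation. The glucagon receptor Gcgr was at 115, 105 and 97.4 FPKM in hepatocytes, and its differences were -6.06 and -4.24. Hnf4a, the hepatocyte nuclear receptor, was at 134 to 147 FPKM in hepatocytes and 142 to 263 FPKM in passaged IL6-iHPCs, under 2-fold (0.46). Nr3c1, the glucocorticoid receptor, rose in passaged IL6-iHPCs (1.95).

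As a description over the means of the 11 cell groups, with no test, Cps1 and Arg1 had a Pearson correlation of 0.909, Asl and Slc25a15 of 0.957, and Glul and Gls2 of -0.914. These points share lines and 1 normalization. The genes most like Cps1 over the same groups were Aldh8a1 (0.943), Cyp2a12 (0.942) and Spp2 (0.934). Those most like Glul were St3gal1 (0.951), Klf4 (0.937) and Raph1 (0.935).

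In the fit of all livers, the members called against normal liver were called at 6 h or 24 h. At 6 h after partial hepatectomy, Asl and Slc25a15 were called higher, none of the 9 members tested was called lower, and 16.3% of all 11114 genes were called (4.78% higher, 11.5% lower). At 24 h Slc25a15 was still called higher and Ass1 and Gls2 were called lower, with 7.9% of genes called (3.74% higher, 4.16% lower). No member was called at day 3, day 7 or day 14, where 5.82%, 8.84% and 2.98% of genes were called. Arg2 was under 1 FPKM in all livers but 1 and was not tested. All 5 comparisons share the same 3 normal livers.

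Asl was at 220, 224 and 279 FPKM in normal liver and at 455, 656 and 510 FPKM at 6 h. The groups did not overlap (1.15 ± 0.21, adjusted p = 3.50e-04). By 24 h it was at 318, 217 and 178 FPKM, overlapping normal liver, a fall of 1.21 (SE 0.21) from 6 h (adjusted p = 6.46e-04). The carrier Slc25a15 was at 88.8, 95.4 and 99.5 FPKM in normal liver, 180, 231 and 234 FPKM at 6 h and 217, 207 and 256 FPKM at 24 h. Both times lay wholly above normal liver (1.17 ± 0.13, adjusted p = 5.94e-06, and 1.25 ± 0.13, adjusted p = 1.38e-05). It was back at 110, 94.2 and 108 FPKM on day 3, a fall of 1.11 (SE 0.13) from 24 h (adjusted p = 1.11e-04).

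Ass1 held at 6 h and dropped by 24 h. It was at 1980, 1488 and 2361 FPKM in normal liver, 1919, 2378 and 1438 FPKM at 6 h and 769, 517 and 687 FPKM at 24 h. The 24 h samples were below all others of both groups (-1.56 ± 0.29 against normal, adjusted p = 1.09e-03, and -1.53 ± 0.29 against 6 h, adjusted p = 1.11e-03). Gls2 went from 195, 176 and 223 FPKM to 102, 126 and 107 FPKM at 6 h and 79.7, 44.2 and 77.4 FPKM at 24 h, each set wholly below the last. The 6 h step was under 2-fold (-0.82 ± 0.26, adjusted p = 1.39e-02) and the 24 h difference was called (-1.59 ± 0.26, adjusted p = 4.13e-04). Over the same times the summed hepatocyte markers were 61708 to 65777 FPKM in normal liver, 56912 to 62958 FPKM at 6 h and 42803 to 50236 FPKM at 24 h, and the part of that in these falls was not tested.

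Otc declined in step but with a wide fitted error. It was at 208, 221 and 196 FPKM in normal liver, 161, 140 and 169 FPKM at 6 h and 105, 76 and 85.5 FPKM at 24 h. The 3 sets did not overlap, and yet the 24 h difference of -1.23 ± 0.79 missed the threshold (adjusted p = 0.244). The spread was widest on day 3, where Otc was 5.29 FPKM in replicate 2 beside 133 and 166 FPKM. Without that library the error was 0.13 and the 24 h fall was called (adjusted p = 5.55e-06), which makes 3 members lower and 1 higher at 24 h, with 8.81% of genes called in that fit.

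Cps1 was not called at any time, with differences of -0.16 to 0.12 (SE 0.29) against normal liver. Its levels were 650, 580 and 618 FPKM in normal liver, 559, 650 and 561 FPKM at 6 h and 638, 435 and 602 FPKM at 24 h. These sets overlapped, and the size of the SE limits what could be detected. Arg1, at 934, 945 and 932 FPKM in normal liver, was at 1291, 1541 and 1467 FPKM at 6 h, above normal in every sample but under 2-fold (0.61 ± 0.19, adjusted p = 1.56e-02). Nags was at 45.9, 34.9 and 55.9 FPKM in normal liver and 31.7, 32.2 and 16.9 FPKM at 6 h, all lower and also under 2-fold (-0.77 ± 0.28, adjusted p = 3.13e-02).

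Glul was 266, 278 and 269 FPKM in normal liver, and 330, 344 and 614 FPKM at 6 h. All 6 h samples were higher, but the difference did not pass the test (0.60 ± 0.49, adjusted p = 0.321). In the limma fit without PHX-D3 replicate 2 its SE was 0.24 and it passed the adjusted p (0.0376) under 2-fold. At 24 h it was at 399, 311 and 203 FPKM, spread on both sides of normal liver. Day 3 gave 245, 34 and 169 FPKM, all below normal liver, with replicate 2 lowest (-1.26 ± 0.49, adjusted p = 6.72e-02, and -0.41 without replicate 2). Day 7 gave 349, 331 and 356 FPKM, and was called higher than day 3 (1.61 ± 0.49, adjusted p = 2.00e-02), a call lost without that replicate (0.76, adjusted p = 3.21e-02). Day 14, at 348, 356 and 322 FPKM, lay above normal liver with no overlap, as day 7 did, and neither passed the test.

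PHX-D3 replicate 2 departed from its group in several members. Cps1 (359 FPKM beside 567 and 1139 FPKM) and Ass1 (858 beside 1195 and 2048 FPKM) were also lowest there, but replicate 3 lay further from replicate 1. In replicate 2, Nags was 25.8 FPKM beside 51.6 and 59.6 FPKM, and Gls2 77.9 beside 142 and 181 FPKM. Arg1 was 1765 FPKM beside 939 and 1142 FPKM, and Arg2 1.14 FPKM beside 0.0565 and 0.0938 FPKM. Its stellate markers summed to 211 FPKM beside 69.6 and 82.8 FPKM and its red blood cell genes to 281 FPKM beside 89.6 and 37 FPKM, and their part in these values was not tested. Leaving it out, Ass1 (1.27 ± 0.27, adjusted p = 2.77e-03) and Gls2 (1.29 ± 0.20, adjusted p = 4.02e-04) were called higher on day 3 than at 24 h, beside the fall of Slc25a15.

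From day 3 on, no member was called against normal liver in the fit of all livers, but several still lay apart from it. On day 7 Ass1 was at 1372, 1598 and 1728 FPKM and Gls2 at 127, 138 and 150 FPKM, the latter still below every normal sample but not called (-0.51 ± 0.26, adjusted p = 0.149). On day 14 Ass1 was at 1854, 2274 and 2571 FPKM and Gls2 at 220, 207 and 224 FPKM, overlapping normal liver. Otc was the gene that lay below normal liver in every sample on both days. It was at 161, 149 and 151 FPKM on day 7 and 158, 129 and 136 FPKM on day 14. Without PHX-D3 replicate 2 both Otc differences passed the adjusted p under 2-fold (-0.44 and -0.56). In that fit Slc25a15 on day 14 (0.50) and Gls2 on day 7 (-0.51) also passed it under 2-fold. Slc25a15 lay wholly above normal liver on day 14, at 148, 134 and 121 FPKM beside 88.8, 95.4 and 99.5 FPKM. Asl also lay wholly above normal liver on day 14, and Nags wholly below it on day 7. Members lying wholly above or below normal liver numbered 8 at 6 h, 6 at 24 h, 2 on day 3, 5 on day 7 and 5 on day 14 of 10, while 64.6%, 48.7%, 39.8%, 55.8% and 43.6% of all genes did so. The members' counts include Arg2, which was not tested and lay wholly above at 6 h, 24 h, day 7 and day 14 on few reads. The shares are of the 11114 genes tested. Without Arg2 the members' share on day 14 was close to that of all genes. No difference between the members and all genes is drawn from these counts.

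**Figure D4:**
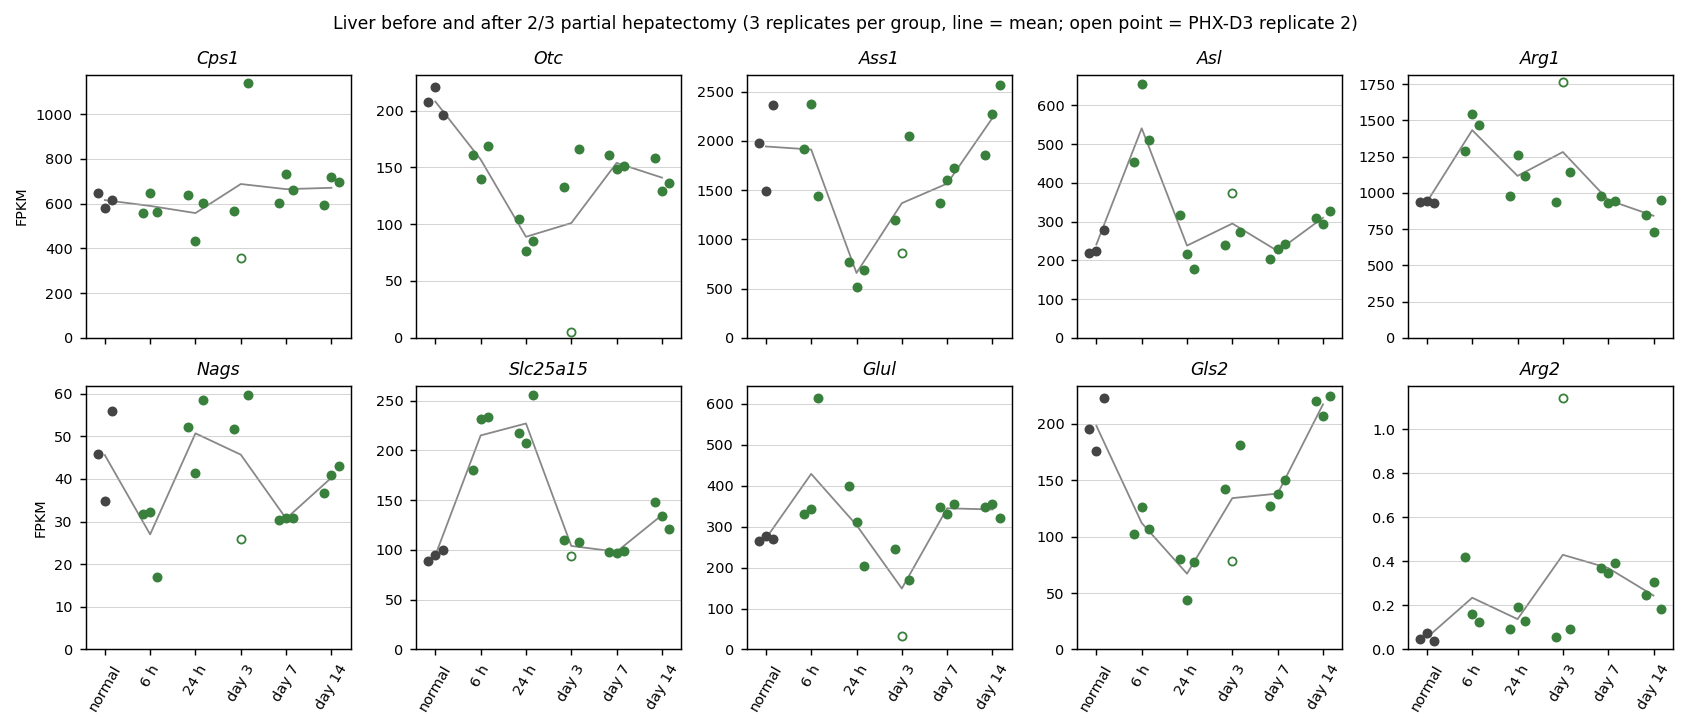
FPKM of the 10 members in normal liver and at 5 times after partial hepatectomy, with a point per sample, a line through the group means and an open point for PHX-D3 replicate 2. Asl peaks at 6 h, Slc25a15 at 6 h and 24 h, Ass1, Gls2 and Otc are lowest around 24 h apart from the open point, and Cps1 shows no called change.

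The ratio of Glul to Gls2 in the livers was 0.44, 0.66 and 0.27 in normal liver, 1.68, 1.44 and 2.52 at 6 h and 2.31, 2.79 and 1.38 at 24 h. Both times lay wholly above normal liver, as did day 7 at 1.45, 1.26 and 1.24, each at the smallest exact permutation p of 0.10. The Cad to Cps1 ratio averaged -7.53 at 6 h and -7.50 at 24 h against -7.89 in normal liver, again wholly above it at the smallest exact p of 0.10. No liver sample had Cad above Cps1, unlike the D3 and passaged IL6-iHPCs but like the D14 cells and the IL6-iMHs.

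Among the 33 other nitrogen genes tested in liver, 5 were higher and 5 lower at 6 h, beside 4.78% and 11.5% of all genes. The higher ones were the cytosolic aspartate transaminase Got1 (1.90 ± 0.22), the glutamine transporter Slc38a2 (1.69 ± 0.23), Sds (1.50 ± 0.26), Sdsl (1.39 ± 0.25) and Gpt2 (1.03 ± 0.34). The lower ones were Car5a (-2.61 ± 0.88), Amt of the glycine cleavage system (-2.17 ± 0.26), the urea and glycerol channel Aqp9 (-1.83 ± 0.25), Gcsh (-1.03 ± 0.20) and Hal, just at 2-fold (adjusted p = 3.64e-02). At 24 h 1 was higher and 4 were lower, beside 3.74% and 4.16% of all genes, with Odc1, ornithine decarboxylase, at 1.09 ± 0.24 and Hal at -1.78 ± 0.38. On day 3 Asns (2.15 ± 0.43) and Gpt2 (1.12 ± 0.34) were higher. Of the 7 regulators, 1 was called higher and 3 lower at 6 h, beside the same 4.78% and 11.5% of all genes. Cebpa was at 191, 252 and 208 FPKM in normal liver and 62, 32 and 34 FPKM at 6 h (-2.37, limma adjusted p = 6.61e-05). Cebpb was at 8.34, 25.6 and 11.5 FPKM in normal liver and 73.7, 41.7 and 50.9 FPKM at 6 h. Gcgr went from 122, 143 and 140 FPKM to 55.6, 60.2 and 52.3 FPKM, and Tbx3 from 7.29, 3.55 and 6.11 FPKM to 0.665, 1.31 and 1.41 FPKM. Any bearing of these regulators on the members was not tested.

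Over the 6 liver group means, again as a description, the genes most like Cps1 were Eef2 (0.994), Zxdc (0.993) and Plg (0.993), and those most like Glul were Timm17a (0.968), Supt7l (0.966) and Polr2c (0.958). Cps1 group means differed little, from 558 to 688 FPKM, and the 6 points share 1 normalization. Kupffer cell markers summed to 110 to 192 FPKM in normal liver and 697 to 1016 FPKM on day 7, a time at which no member was called, and to at most 0.0265 FPKM in the passaged cultures.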

How the data were processed

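Messenger RNA libraries from mouse hepatocytes, cultures and livers were sequenced as paired reads. According to the submitters' processing notes the tools were TopHat 1.4.1 and Cufflinks 1.3.0 with the mm10 genome. The authors deposited FPKM per gene and sample, normalized separately for the cell table (33 samples) and the liver table (18 samples), so no test crosses tables. A further table of 9 samples was not used here.

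A gene entered the tests if 3 samples or more reached 1 FPKM (12328 genes in cells, 11114 in livers). Values were taken as log2(FPKM + 1), which understates changes of low genes, and fitted with limma 3.58.1 (R 4.3.3, trended variance, all groups of a table in 1 fit), and p-values were adjusted over every gene of the fit by Benjamini-Hochberg. A call needs an adjusted p under 0.05 and 2-fold. Class values average the 4 lines equally. Single ratios were tested by exact permutation. Named genes were the 10 members, plus the largest called changes of the listed nitrogen genes and regulators and the 3 best correlated genes. One listed gene and its ratio are not reported here. The members and lists were chosen with earlier results of these data known. On simulated data, 190 of 192 changed genes were recovered in the D3 comparison (10923 genes, 0 wrong calls) and 187 of 195 in the PHX-6h comparison (10670 genes, 3 wrong calls). The planted changes were all well above 2-fold and lay in 1 group, with every other gene equal over the groups. In the real D3 comparison 66% of genes were called. The simulation therefore cannot speak to calls near 2-fold or under a shift of most genes.

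Samples with the same replicate number did not deviate together (mean correlation -0.015 in cells and -0.0302 in livers), so replicates were not paired. Alternatives changed the pseudocount (0.1), the filter (none, 5 FPKM), the scaling (quantile, median centring), the fold threshold (none, 4), and the libraries left out. Leaving out PHX-D3 replicate 2 was chosen after seeing the data. Precision is limited by n = 3 and, for Otc and Arg2 in some groups, by a few reads.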

Additional observations from a re-analysis of the deposited data

Results flagged for a closer look

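For each of the 10 members the change from IL6-iHPCs to IL6-iMHs differed between the 4 passaged lines by an F test on 3 degrees of freedom in the limma fit, as it did for 96.3% of all genes tested, so the difference as such is not particular to these genes. F was 636 for Ass1, 326 for Arg1, 229 for Arg2, 169 for Glul, 134 for Asl, 134 for Gls2, 68.5 for Otc, 37.9 for Slc25a15, 35.4 for Nags and 29.6 for Cps1. The lowest and highest change lay in clone-1 and mouse-1 (P10) for Ass1 (1.69 and 10.05), in mouse-1 (P35) and mouse-2 (P10) for Arg1 (4.14 and 9.50), and in mouse-1 (P10) and clone-1 for Arg2 (-0.12 and 2.43). The replicates of a line are technical repeats, so these tests set the lines against technical error only. All 10 also passed with the 3 lines other than clone-1.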

How the results depend on the processing

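No filter, a 5 FPKM filter and a replicate block each left all 201 member results on their side of the threshold. A pseudocount of 0.1 left 187 unchanged and brought 14 past it, and quantile normalization left 184 and median centring 171. Leaving out clone-1 changed Arg2 and Slc25a15 over the lines, as given above. Cell replicates are technical repeats, depth is recovered and not stated, and Arg2 in liver and Otc in the cultures rest on few reads. The causes of the changes below were not tested.

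The sign turned for Arg2 against hepatocytes with quantile normalization in mouse-1 (P10) IL6-iHPCs (-0.041), and with median centring at D3 (-0.595), at D14 (-0.488), over the lines (-0.448) and in the mouse-1 line at P10 (-0.852) and P35 (-0.509). It turned for Glul with centring in mouse-1 (P35) IL6-iHPCs against hepatocytes (-0.0269), on maturation of mouse-2 (0.112) and on maturation of clone-1 (0.309, and 0.162 with quantile normalization).

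With no fold threshold, members called numbered 8 for D14 against D3, 8 for P35 against P10, 9 for maturation of clone-1, 9 for that of mouse-1 (P35), 10 over the lines, 5 at PHX-6h, 1 at PHX-D14, 4 for 24 h against 6 h, 3 for day 3 against 24 h and 1 for day 14 against day 7. With a 4-fold threshold they numbered 2 for D14 against D3, 1 for P35 against P10, 4, 4 and 6 for the IL6-iMHs of mouse-1 (P10), mouse-2 (P10) and mouse-1 (P35) against hepatocytes, 5 for maturation of mouse-1 (P10), 3 for that of clone-1, 3 over the lines, and 0 at PHX-6h, at PHX-24h, for 24 h against 6 h, for day 3 against 24 h and for day 7 against day 3. Quantile normalization and centring each gave 9 for maturation of mouse-1 (P35), quantile normalization 2 for day 3 against 24 h, and a pseudocount of 0.1 gave 7 for P35 against P10. The shares of all genes called at these settings, and in the leave-one-out counts below, are not given. These counts therefore show only how the members' calls moved, and not whether the members differed from all genes.

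Ratio differences against hepatocytes grew with a pseudocount of 0.1. For Arg2 to Arg1 they were 13.4 at D3, 12.7 at D14, 12.1, 12.5, 15.6 and 16.4 in the IL6-iHPCs of mouse-1 (P10), mouse-2, mouse-1 (P35) and clone-1, and 2.34, 10.1 and 9.36 in the IL6-iMHs of mouse-1 (P10), mouse-1 (P35) and clone-1. For Glul to Gls2 they were 10.7 at D14, 13, 11.7, 7.43 and 9.41 in those IL6-iHPCs and 6.57, 8.67, 6.17 and 8.61 in their IL6-iMHs. For Cad to Cps1 they were 10.9 at D3, 7.01 at D14, 11.8, 11, 16.6 and 12.7 in the IL6-iHPCs, and 2.49 and 1.28 in the IL6-iMHs of mouse-1 (P35) and clone-1. In livers, Arg2 to Arg1 turned positive at 6 h (0.418), 24 h (0.369) and day 3 (0.727) and was 1.6 on day 7 and 1.32 on day 14.

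Leaving out 1 replicate gave 0 to 2 members called on day 3 against normal liver (2 without day 3 replicate 1 or 3), 1 to 3 for day 3 against 24 h and 0 to 2 for day 7 against day 3, and -0.116 to 0.0543 for the Arg2 to Arg1 ratio on day 3. The count for day 3 against 24 h moved without 24 h replicate 1 or 3 or any day 3 replicate, and that for day 7 against day 3 without day 7 replicate 1 or 3 or any day 3 replicate. Numbers do not pair the samples: 33 of 165 pairs in cells and 7 of 45 in livers correlated above 0.1, and 4 of 33 and 5 of 18 samples correlated best with their own number. The replicate block changed none of the calls.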

Other observations

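Beside Glul, other genes of ammonia and glutamate handling known from the perivenous layer were low in the isolated hepatocytes, in values picked after they were seen and set across tables that were normalized apart, with no test. Rhbg, an ammonia transporter, was at 0.756 to 0.905 FPKM in hepatocytes and 8.25 to 10.3 FPKM in normal liver. Slc1a2, a glutamate transporter, was at 1.37 to 1.53 FPKM and 12.5 to 14.8 FPKM, and Oat, ornithine aminotransferase, at 176 to 197 FPKM and 374 to 525 FPKM. Glul averaged 13.7 FPKM in hepatocytes and 271 FPKM in normal liver. Cyp2e1, which marks a wider pericentral zone, was at 2569 to 2824 FPKM in hepatocytes and 2390 to 2702 FPKM in normal liver, and Cyp1a2 at 273 to 320 FPKM and 280 to 487 FPKM.

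In PHX-D3 replicate 2, where Glul was 34 FPKM and Otc 5.29 FPKM, Slc1a2 was at 0.205 FPKM beside 19.7 and 20.6 FPKM in the other replicates. Rhbg was at 0.158 FPKM beside 7.9 and 7.97 FPKM, and Oat at 137 FPKM beside 353 and 280 FPKM. Cyp1a2 was at 0.0642 FPKM beside 230 and 226 FPKM, and Cyp2e1 at 398 FPKM beside 2801 and 1923 FPKM. Ass1 (858 FPKM) and Slc25a15 (94.2 FPKM) were nearer to their group.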
